A study of Mus musculus with 4 samples.

Results

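Proteasome genes were examined in CD8αβ+ intraepithelial lymphocytes (IELs), T cells that reside among the epithelial cells of the small intestine, and in CD8αβ+ splenic lymphocytes (SPLs). The members were all probes of the array, other than control spots, whose gene name begins with Psma to Psmg and a number. This gave 79 of 41174 probes, which carry 49 of the 27376 gene names on the array. Among them, 7 probes belong to the 5 genes *Psmb8*, *Psmb9*, *Psmb10*, *Psme1* and *Psme2* of the immunoproteasome and its activator, and 72 belong to the rest. One matched symbol, *Psmc3ip*, names a cofactor of meiotic recombination and not a proteasome subunit, so it was kept apart.

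The study compared the RNA of both populations on 4 Agilent 1-color arrays, with 2 samples of each. Cells were sorted from wild-type male mice aged 8 to 12 weeks on a C57BL/6 background, and neither population received a treatment or carried an engineered allele. The sort took CD45+ CD3+ CD8α+ CD8β+ TCRβ+ cells, and each sample was sorted from several mice according to the paper. The p-values therefore measure the spread between 2 pooled samples of a group and not between single mice, and part of that spread may be technical. IEL replicate 1 and SPL replicate 2 were on slide 1, and IEL replicate 2 and SPL replicate 1 were on slide 2.

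The proteasome degrades proteins that carry ubiquitin chains. Its 20S core is a barrel of α rings around β rings, and the β5, β1 and β2 subunits hold the active sites. The 19S particle caps the core, recognises ubiquitin and unfolds the substrate with a ring of ATPases. In lymphocytes and in cells exposed to interferon-γ, the catalytic subunits encoded by *Psmb5*, *Psmb6* and *Psmb7* can be replaced by those encoded by *Psmb8* (LMP7), *Psmb9* (LMP2) and *Psmb10* (MECL-1). The resulting immunoproteasome, often with the PA28αβ activator encoded by *Psme1* and *Psme2*, yields peptides that fit MHC class I molecules well.

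Values below are normalized log2 levels, which are the log2 of the scanner's background-corrected intensity minus the array's 75th percentile. A level of 0 is thus the intensity at that percentile, and levels of different probes are not comparable. A difference of 1 is a 2-fold difference, and differences are IELs minus SPLs. A probe was tested if it was well above background on both arrays of at least 1 group, as 76 member probes of all 49 symbols were. Of these, 73 were well above background on all 4 arrays, or 96.1%, against 89.8% of all 27937 tested probes. The other 3 probes, a second probe each of *Psma2*, *Psmb11* and *Psmd11*, were above background on no array.

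IEL replicate 1 stood apart from the other arrays, and IEL replicate 2 was nearer to SPL replicate 1 than to IEL replicate 1 in 78.1% of tested probes. Both points touch every result below, and which IEL sample is purer was not tested. Pearson's r across tested probes was 0.946 between the IEL arrays, 0.986 between the SPL arrays, 0.911 within slide 1 and 0.992 within slide 2. Of all tested probes, 25.5% differed at least 2-fold between the arrays of slide 1 and 3.20% between those of slide 2. Marker sums add linear levels and not log2 levels, so bright markers weigh most, and they compare arrays only within a marker set. Values of single genes remain on the log2 scale. The summed level of 9 T cell markers was between 743 and 842 on the 4 arrays. That of 10 intestinal epithelial markers was 25.9 and 5.12 in the IEL samples and 2.10 and 0.551 in SPL replicates 1 and 2, and all 10 markers had both IEL arrays above both SPL arrays. The summed level of 6 Paneth cell markers was 396 and 10.8 in the IEL samples, against 7.49 and 5.28. In SPL replicates 1 and 2, *Defa1* read 0.19 and -5.04, whereas *Lyz1* read 2.30 and 2.35. Markers of blood cells ran the other way, with 5 erythroid markers at 1.15 and 75.01 in IEL replicates 1 and 2 against 99.1 and 116 in the SPL samples. The 5 neutrophil markers on the array summed to 0.213 and 35.1 against 43.5 and 49.0. The 6 B cell markers summed to 3.62 and 20.3 against 26.0 and 19.8, and 7 macrophage and dendritic cell markers to between 4.26 and 9.69. Of these 7 markers, 3 had higher and 4 lower fitted values in IELs, from -2.53 for *C1qa* to 1.65 for *Itgax*. *Itgax* read 3.12 and *C1qa* -5.54 on IEL replicate 1, against 1.91 and 0.36 on IEL replicate 2. Their sum therefore does not show how each marker ran. The part of these cells in the differences below was not tested, and in bulk samples fewer cells of a type and less RNA per cell cannot be told apart.

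No proteasome gene differed between IELs and SPLs past the threshold, which does not show that their levels were equal. Limma called 0 of the 76 member probes at an adjusted p of 0.05, and the background was the same, with 0 of 27937 probes called (0%). At an unadjusted p of 0.05, 2 member probes passed, for *Psme3* and for the dimmest *Psma3* probe, as did 1295 probes with higher and 308 with lower levels in IELs among all tested. The fitted differences of the 49 genes, taking for each gene the tested probe with the highest mean level, ran from -0.87 for *Psmg1* to 1.16 for *Psme3*, with a median of -0.15. Values were lower in IELs for 38 genes and higher for 11. Among the 47 genes whose probe was above background on all 4 arrays, these were 36 and 11. Over all tested probes the median difference was 0.00 and 49.9% of the differences were above 0.

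The member probes lay to the SPL side more often than the tested probes did as a whole. Of the 75 tested member probes with a value on all 4 arrays, 36 (48%) had both IEL arrays below both SPL arrays, against a background of 24.6%. Only 2 (2.67%), for *Psme3* and 1 of the 3 probes of *Psmd14*, had both IEL arrays above both SPL arrays, against 24.4% of all probes. Counted by gene, these were 24 and 1 of 49, and the remaining 24 overlapped. For the 47 genes above background on all 4 arrays they were 23 and 1. Among the 73 member probes well above background on all 4 arrays, 35 (47.9%) had both IEL arrays below and 2 (2.74%) above, against 23.2% and 25.6% of all such probes. The sizes were small: 5 of the 75 probes (6.67%) differed at least 2-fold on slide 1, against 25.5% of all probes, and 0 on slide 2, against 3.20%. These shares are descriptions, since the members share the same 4 samples and are not independent of each other. The direction depended on background correction. With normexp at an offset of 50, the median of all probes was -0.38. All 5 immunoproteasome genes and 34 of the 43 other proteasome genes then had values above 0. Only 12% of member probes had both IEL arrays below, against 14.6% of all probes, and 6.67% had both above, against 13.9%.

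**Figure D1:**
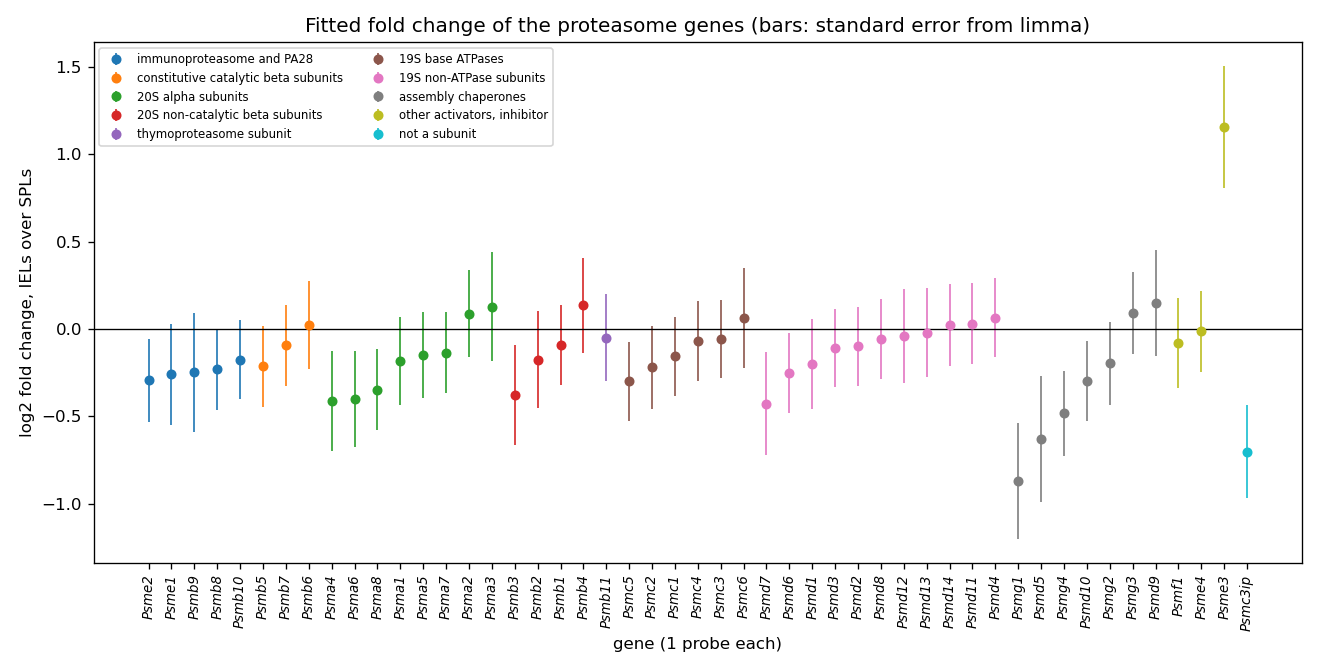
Fitted log2 fold change (IELs over SPLs, vertical axis) of each of the 49 genes, grouped by role, with the standard error from limma on 2 samples per group as bars. Most points lie a little below 0, the 5 immunoproteasome genes lie between -0.29 and -0.18, and *Psme3* at 1.16 stands alone at the top, while with normexp at an offset of 50 the 5 immunoproteasome genes had values above 0.

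The 5 immunoproteasome genes had slightly lower fitted values in IELs, between -0.29 and -0.18, none passed the test, and all 5 had values above 0 with normexp at an offset of 50. For *Psmb8*, the β5i subunit, the levels were 5.29 and 5.45 in IEL replicates 1 and 2 and 5.62 and 5.59 in SPL replicates 1 and 2. Both IEL arrays were thus below both SPL arrays, by 0.23 on average (SE 0.23, 95% interval -0.85 to 0.39, adjusted p = 0.70 by limma), and by 0.15 without IEL replicate 1. A second *Psmb8* probe gave -0.16, with overlapping groups. *Psmb10*, the β2i subunit, read 5.96 and 6.06 in IELs against 6.20 and 6.17 in SPLs, which also did not overlap. Its difference was -0.18 (SE 0.23, 95% interval -0.78 to 0.43, adjusted p = 0.76 by limma). *Psmb9*, the β1i subunit, read 4.10 and 4.81 in IELs against 4.83 and 4.58 in SPLs. Here IEL replicate 2 was at the level of the SPLs, and only IEL replicate 1 was low. The difference of -0.25 (SE 0.34, 95% interval -1.16 to 0.66, adjusted p = 0.77 by limma) turned to 0.11 without IEL replicate 1 and was -0.60 without IEL replicate 2.

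The PA28αβ genes, whose products open the gate of the core, also had lower fitted values in IELs. *Psme1* read 5.71 and 6.20 in IELs against 6.33 and 6.09 in SPLs, and the groups overlapped. *Psme2* read 6.36 and 6.61 against 6.76 and 6.80, and the groups did not overlap. The differences were -0.26 for *Psme1* (95% interval -1.04 to 0.52) and -0.29 for *Psme2* (95% interval -0.94 to 0.35), with limma's adjusted p at 0.73 and 0.66. Without IEL replicate 1 they were -0.01 and -0.17, and without IEL replicate 2 they were -0.51 and -0.42. A second *Psme2* probe gave -0.42, again with both IEL arrays below both SPL arrays. All 5 intervals include 0, and their lower ends allow a difference of about 2-fold. On mm9, the array's build, the *Psmb8* probe is annotated at chr17:34337828-34338152 and the *Psmb9* probe at chr17:34319174-34319233, in the same stretch of chromosome 17. The *Psme1* and *Psme2* probes are neighbours too, at chr14:56200194-56200253 and chr14:56206335-56206394, and the *Psmb10* probe is at chr8:108459677-108459736.

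The constitutive catalytic genes, whose products these subunits replace, had differences between -0.21 and 0.02. *Psmb5* (β5) read 2.95 and 3.14 in IELs against 3.29 and 3.22 in SPLs, without overlap, a difference of -0.21 (95% interval -0.84 to 0.41) that was -0.12 without IEL replicate 1. *Psmb6* (β1) read 4.39 and 4.10 against 4.14 and 4.31, and *Psmb7* (β2) read 2.27 and 2.20 against 2.41 and 2.24. Both overlapped, with differences of 0.02 (95% interval -0.65 to 0.70) and -0.09 (95% interval -0.71 to 0.53).

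**Figure D2:**
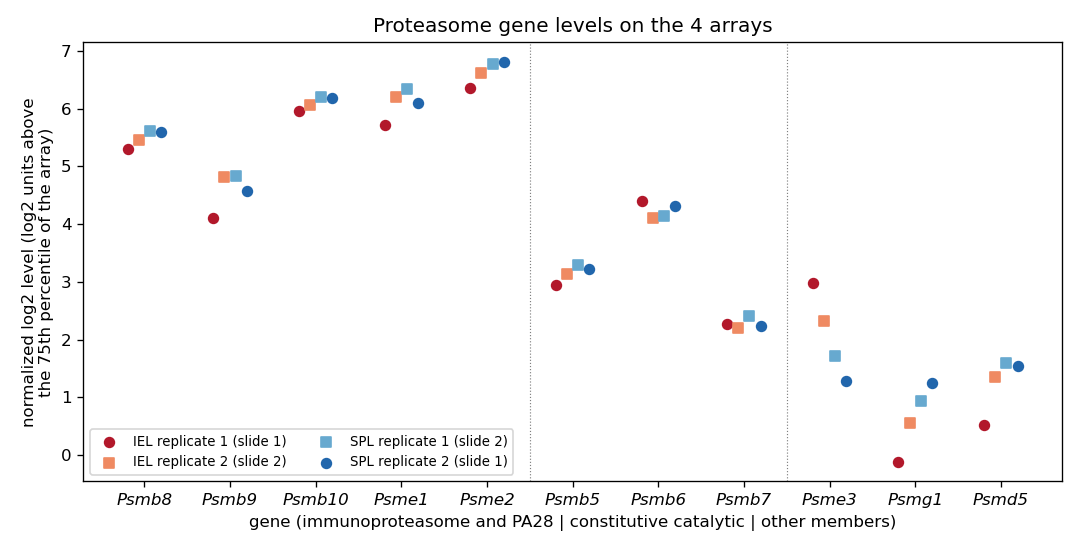
Normalized log2 level (vertical axis, log2 units above the 75th percentile of the array) of 11 proteasome genes on each of the 4 arrays, with red points for IELs, blue points for SPLs, circles for slide 1 and squares for slide 2. Heights are comparable within a gene and not between genes. IEL replicate 1 is the lowest point for all 5 immunoproteasome genes, and the 4 points of *Psme3* fall from IEL replicate 1 at 2.98 to SPL replicate 2 at 1.28.

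The immunoproteasome was then set against the rest of the proteasome, per array. The median difference was -0.25 over the 5 immunoproteasome genes and -0.10 over the 43 other proteasome genes, so that the immunoproteasome median was lower by 0.15. On each array, the deviation of a gene from its mean over the 4 arrays was taken and its median computed for both sets. The immunoproteasome median minus the other median was -0.22 and 0.03 in IEL replicates 1 and 2, and 0.12 and -0.03 in SPL replicates 1 and 2. IEL replicate 2 was therefore above SPL replicate 2, the groups overlapped, and the largest departure was on IEL replicate 1. Within slide 1 the immunoproteasome median was -0.39 and the other median -0.15, a gap of -0.24. Within slide 2 they were -0.14 and -0.07, a gap of -0.07. Without IEL replicate 1 the gap was -0.01, without SPL replicate 1 it was -0.01, without SPL replicate 2 it was -0.20 and without IEL replicate 2 it was -0.32.

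**Figure D3:**
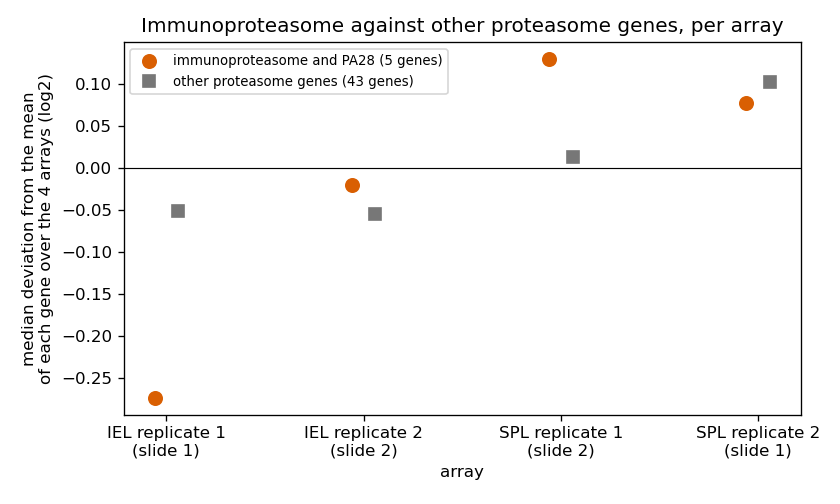
Median deviation (log2, vertical axis) of the 5 immunoproteasome genes and of the 43 other proteasome genes from each gene's mean over the 4 arrays, for each array. Circles and squares are close together on IEL replicate 2 and SPL replicate 2, and are furthest apart on IEL replicate 1, at -0.27 against -0.05.

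*Psme3* was the member with the largest difference. It encodes PA28γ, a nuclear activator related to PA28α and PA28β that stimulates degradation without ubiquitin and does not belong to the interferon-induced set. Its levels were 2.98 and 2.32 in IEL replicates 1 and 2 and 1.72 and 1.28 in SPL replicates 1 and 2. Both IEL arrays were above both SPL arrays, which no other of the 49 genes showed for the probe that represents it. The difference was 1.16, or 2.23-fold, with an SE of 0.35 and a 95% interval of 0.22 to 2.10, and the adjusted p was 0.63 by limma (unadjusted p = 0.026). It was 1.71 within slide 1 and 0.61 within slide 2, and it stayed between 0.83 and 1.49 under 17 alternatives. Without IEL replicate 2 the adjusted p was 0.032, when 8.56% of all probes were called higher and 11% lower in IELs, whereas under the other alternatives it was at least 0.465. The 4 arrays have the same order for *Psme3* as for the summed epithelial markers, from IEL replicate 1 through IEL replicate 2 and SPL replicate 1 to SPL replicate 2, and the part of epithelial RNA was not tested. One probe measured the gene, at chr11:101184185-101184245 of mm9.

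The other 2 regulators of this group had differences near 0. *Psme4* encodes PA200, an activator of nuclear proteasomes, and read 3.04 in both IEL samples against 2.95 and 3.14 in SPLs. Its difference was -0.01, and its 3 other probes gave -0.39, 0.06 and -0.52. *Psmf1* encodes PI31, a protein that binds and inhibits the core in vitro, and read 0.69 and 0.41 against 0.51 and 0.76, a difference of -0.08. Its dimmest probe gave -0.73, and -1.15 without IEL replicate 2, whereas its remaining probe gave -0.01.

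The 20S core genes outside the catalytic group had differences between -0.41 and 0.14. Among the 7 α subunit genes other than *Psma8* the median was -0.15 and 5 values were lower in IELs. Both IEL arrays were below both SPL arrays for 4 genes (57.1%), against 24.6% of all tested probes. *Psma4* was at the lower end, with 1.83 and 2.35 in IELs against 2.45 and 2.55 in SPLs and a difference of -0.41, which was -0.15 without IEL replicate 1 and -0.67 without IEL replicate 2. *Psma3* was at the upper end, with 3.76 and 3.30 against 3.17 and 3.63 and a difference of 0.13. Its 3 probes disagreed, as another gave 0.35 and the dimmest -0.82, with levels of -4.98 and -4.82 in IELs against -4.15 and -4.02 in SPLs. *Psma2* had a difference of 0.09 with overlapping groups. *Psma8* encodes the α subunit of spermatoproteasomes. It was not well above background on either IEL array, at -5.99 and -6.09, and read -5.62 and -5.77 in SPLs. These levels are near the background, so no size is given for its difference. *Psma8* was tested only through the SPL arrays, which fixes its direction. It therefore stands outside the counts of this family, although it is among the 49 genes. The 4 non-catalytic β genes had a median of -0.13, between -0.38 for *Psmb3* and 0.14 for *Psmb4*. *Psmb11*, which encodes the β5t subunit of the thymoproteasome of thymic epithelium, read between -5.77 and -5.45 on the 4 arrays with overlapping groups. Its probe was not well above background on IEL replicate 1. These levels too are near the background, so they do not show that the populations express the gene alike.

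The 19S genes had differences between -0.43 and 0.07. The 6 ATPases of the base had a median of -0.11, with differences between -0.30 for *Psmc5* and 0.06 for *Psmc6*. Of these, 3 (50%) had both IEL arrays below both SPL arrays, against 24.6% of all tested probes. The 11 non-ATPase subunits had a median of -0.06, between -0.43 for *Psmd7*, a scaffold partner of the deubiquitinase *Psmd14*, and 0.07 for *Psmd4*, a ubiquitin receptor. *Psmd7* read 1.57 and 2.13 in IELs against 2.30 and 2.25 in SPLs, a difference that was -0.14 without IEL replicate 1 and -0.71 without IEL replicate 2.

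Assembly chaperones held the 3 lowest differences of the proteasome genes. These proteins guide α ring and base formation and are not subunits of the finished particle. The 7 chaperone genes among the members had a median of -0.30. Both IEL arrays were below both SPL arrays for 5 of them (71.4%), against 24.6% of all tested probes and 48% of the member probes. *Psmg1* encodes PAC1, a partner of PAC2 in α ring assembly. It read -0.11 and 0.55 in IEL replicates 1 and 2 against 0.94 and 1.24 in SPL replicates 1 and 2, without overlap. The difference was -0.87 (SE 0.33, 95% interval -1.76 to 0.02, adjusted p = 0.63 by limma), with -1.35 within slide 1 and -0.39 within slide 2. *Psmd5* encodes S5b, a chaperone of the base. It read 0.52 and 1.36 against 1.59 and 1.54, also without overlap, a difference of -0.63 (SE 0.36, 95% interval -1.60 to 0.34, adjusted p = 0.63 by limma). Without IEL replicate 2 the differences were -1.20 for *Psmg1* and -1.05 for *Psmd5*. Without IEL replicate 1 the values were -0.54 for *Psmg1* and -0.21 for *Psmd5*, and with normexp at an offset of 50 they were -0.49 and -0.20. *Psmg4* (PAC4) read 1.31 and 1.43 against 1.73 and 1.98, a difference of -0.48. Its partner *Psmg3* (PAC3) had a difference of 0.09 and *Psmd9* one of 0.15, both with overlapping groups. The erythroid and neutrophil marker sums have the same order over the 4 arrays as *Psmg1*, and their part was not tested. *Psmc3ip*, the symbol that is no subunit, read -2.14 and -1.73 against -1.29 and -1.17, a difference of -0.70.

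**Figure D4:**
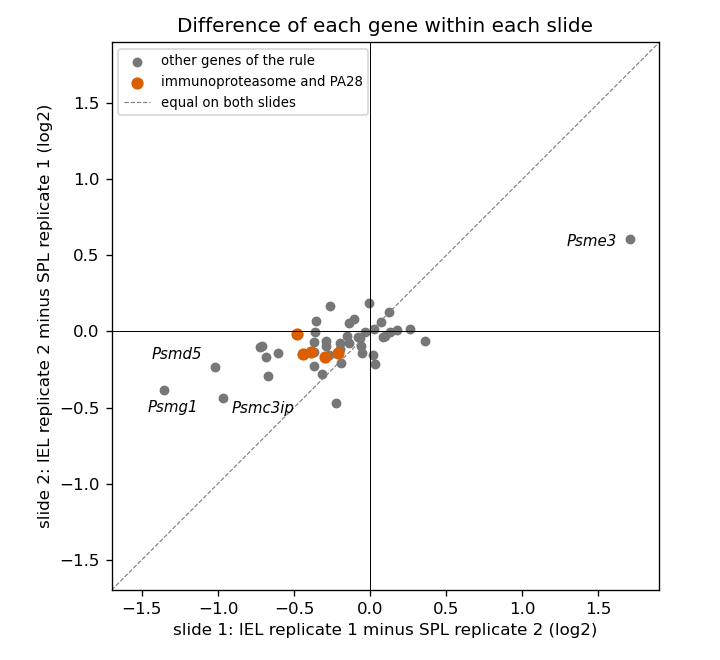
Difference of IELs minus SPLs (log2) within slide 1 (horizontal axis) and within slide 2 (vertical axis) for the 49 genes, with the 5 immunoproteasome genes in orange and a dashed line for equal differences. Most points lie nearer to 0 on the vertical than on the horizontal axis, and *Psme3* is at 1.71 and 0.61.

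Differences within the slides show how the values divide. The sign was the same on both slides for 38 of the 49 genes, including all 5 immunoproteasome genes. The share over all tested probes was not counted, so this is not read as a trait of these genes. The larger difference was on slide 1 for 41 genes. All tested probes leaned that way too, with a median absolute difference of 0.51 on slide 1 and 0.17 on slide 2. The median over the 49 genes was -0.20 on slide 1 and -0.07 on slide 2. IEL replicate 2 was nearer to SPL replicate 1 of its slide than to IEL replicate 1 in 32 genes (65.3%), and this held for 78.1% of all tested probes. A slide effect and a difference between the 2 samples of a group cannot be told apart here beyond these values. Of the 20 genes with several tested probes, 13 had all probes in 1 direction and 7 had both directions.

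Genes that work with the proteasome but lie outside the family were not called with all 4 samples. Of 18 cofactors, which include ubiquitin receptors, shuttle proteins and the transcription factor *Nfe2l1*, 0 passed, and the median was 0.02, from -0.69 for the protease *Ddi2* to 0.46 for the zinc finger protein *Zfand5*. Of 13 genes that trim, transport or load peptides for MHC class I, 0 passed and the median was 0.12. The ends were *Lap3*, an aminopeptidase, at -0.34 and *Pdia3*, a chaperone of the loading complex, at 0.55. The transporter genes *Tap1* and *Tap2*, neighbours of *Psmb9* and *Psmb8* in the MHC, had differences of -0.10 and -0.06. Among 12 genes that regulate the immunoproteasome through interferon, 0 passed and the median was 0.03, although the span was wide. *Ifngr2*, a chain of the interferon-γ receptor, was at -2.06 and *Ifng* at 1.84 (both adjusted p = 0.63 by limma). *Irf1*, which drives *Psmb9* transcription, was at -0.46. Some of these differences were larger without IEL replicate 2, and the genes named here are examples. They were then -1.36 for *Ddi2*, -0.85 for the cofactor *Ngly1*, 1.00 for *Pdia3* and 1.01 for *Calr*, a chaperone of the loading complex. Among the interferon regulators they were then 2.44 for *Ifng*, 1.88 for *Ifngr1*, 1.91 for *Jak2*, -1.90 for *Irf8* and -3.32 for *Ifngr2*. That of *Irf1* stayed at -0.46.

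Promoter letters were read from RefSeq windows on GRCm38.p6 for 41 of the 49 genes, 44 windows in all, and the 250 bases before each start were searched on both strands. The 3 windows below are shown because they belong to the genes with the highest and lowest difference and to the immunoproteasome gene with a match to an interferon-related motif, and capitals mark the matches. The *Psme3* window is chr11:101315963-101316212 on the plus strand, that of *Psmg1* is chr16:95990961-95991210 on the minus strand, and that of *Psmb8* is chr17:34197945-34198194 on the plus strand, each printed along its gene.
Psme3: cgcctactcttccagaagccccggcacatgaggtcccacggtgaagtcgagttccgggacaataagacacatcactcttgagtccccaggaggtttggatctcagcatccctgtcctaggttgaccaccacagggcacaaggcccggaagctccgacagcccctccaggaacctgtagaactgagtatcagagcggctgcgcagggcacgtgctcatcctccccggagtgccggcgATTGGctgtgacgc
Psmg1: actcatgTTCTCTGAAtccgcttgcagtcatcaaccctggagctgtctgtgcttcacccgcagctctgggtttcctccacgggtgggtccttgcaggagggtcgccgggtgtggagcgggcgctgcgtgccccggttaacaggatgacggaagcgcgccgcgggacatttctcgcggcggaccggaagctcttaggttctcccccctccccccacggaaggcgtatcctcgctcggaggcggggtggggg
Psmb8: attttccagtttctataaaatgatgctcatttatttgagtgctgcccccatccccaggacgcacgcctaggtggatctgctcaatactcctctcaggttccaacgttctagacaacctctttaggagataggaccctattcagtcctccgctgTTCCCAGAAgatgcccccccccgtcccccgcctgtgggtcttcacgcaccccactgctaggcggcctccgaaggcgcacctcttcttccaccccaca
The *Psme3* window holds a CCAAT box (CCAAT, here on the other strand) at 14 to 10 bases before the start. *Psmg1* and *Psmb8* hold the letters of a gamma-activated site, TTCNNNGAA, a kind of element that responds to interferon-γ, at 243 to 235 and at 97 to 89 bases before the start. Those letters occurred in 2 of the 44 member windows (4.55%) and in 7.01% of all 32817 windows. The letters of an interferon response element, which are GAAA repeated after a gap of any 2 bases, occurred in 3 member windows (6.82%), those of *Psmb3*, *Psmd4* and *Psmd9*, against 2.97% of all, and in 0 of the 6 windows of the immunoproteasome genes. The antioxidant response element core TGACNNNGC, to which NRF factors bind, occurred in 5 (11.4%) against 10.2%. CCAAT occurred in 15 (34.1%) against 33.8%. A match describes letters only, and a window without one says only that those letters are not in these bases.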

How the data were processed

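RNA was labelled with a single dye on Agilent arrays of 4 samples. The authors deposited the scanner output, in which Feature Extraction (version 10.7.3.1 per the file headers) gives each spot an intensity after background subtraction. It holds no normalization across arrays. The deposited log2 values, already normalized, served as an alternative. The log2 intensity was scaled by the 75th percentile of each array, which was between 312 and 605 units, spots with an outlier mark were left out and spots of a probe were averaged. Between 63.6% and 69.6% of probes were well above background. The fit covered 27937 probes without a block, with limma 3.58.1 (R 4.3.3, and data.table version 1.17.8 to read the files), with Benjamini-Hochberg adjustment at 0.05, two-sided. The number of arrays limits the precision, and the smallest p of an exact permutation test of 2 against 2 samples is 0.33.

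A gene was represented by its tested probe with the highest mean level. Named were the immunoproteasome and constitutive catalytic genes, *Psme3*, *Psme4*, *Psmf1*, *Psmc3ip*, and the 5 highest and 5 lowest of the others. Members and lists were chosen with earlier results of these data known. On simulated data at the measured spread, 0 of 200 probes shifted by 3 log2 units were called, and 192 were called with a spread 4 times smaller. Samples with the same number did not deviate together (r = -0.025 over probes), so the number was taken as no pairing. Other backgrounds, scalings, filters and designs and leaving out each sample were tried as alternatives. The methods name another chip than these files, and the files were followed.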

Additional observations from a re-analysis of the deposited data

How the results depend on the processing

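Under the alternatives that kept all 4 samples, 0 member probes were called. The adjusted p of *Psme3* without IEL replicate 2, given above, does not set this gene apart from the members named next. Fits without 1 sample leave 1 sample in a group, so they are described here by their differences. Without IEL replicate 2 these were 1.49 for *Psme3*, -1.20 for *Psmg1*, -1.05 for *Psmd5* and -1.15 for the dimmest *Psmf1* probe. The unpaired test that the methods name passed 0 member probes after adjustment, and 0 of all 27912 probes. Unadjusted, this test passed 2 member probes, and the share over all probes was not counted. It and a variance trend leave the medians as they are. In fits without a sample the lone sample is assumed to vary like the other group. Leaving out each sample in turn gave -0.42 to -0.13 for the immunoproteasome median, -0.16 to -0.071 for the other proteasome median and -0.32 to -0.0085 for the gap. With the replicate block the immunoproteasome median was -0.25, as without it, and the pairing by number changed no call. With slide as a block it was also -0.25, with 0 calls.

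Background correction by normexp with an offset of 50 reversed both medians, to 0.19 and 0.25, or 0.57 and 0.63 above the median of all probes. It also reversed *Psmb8* (0.15), *Psmb9* (0.17), *Psmb10* (0.32), *Psme1* (0.24), *Psme2* (0.19), *Psmb5* (0.24), *Psmb7* (0.26), *Psma4* (0.022), *Psme4* (0.41) and *Psmf1* (0.085). The cause was not tested. The same correction after dropping spots over 20 units under the background around them, chosen after seeing the data, gave medians of -0.33 and -0.13, beside 0.15 for all probes, and reversed *Psmb6* (-0.061), *Psma2* (-0.054) and *Psmg3* (-0.089). The other proteasome median was -0.16 in the deposited log2 values, -0.15 with scaling by the median and -0.15 with the mean of a gene's probes. Near 0, *Psmb6* reversed in the deposited values (-0.056), with quantile normalization (-0.043) and with scaling by the median (-0.032), *Psma2* in the deposited values (-0.019) and *Psma3* with the mean of its probes (-0.11).

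Leaving out 1 sample reversed 9 genes, with ranges of -0.60 to 0.11 for *Psmb9*, -0.12 to 0.17 for *Psmb6*, -0.066 to 0.24 for *Psma2*, -0.10 to 0.36 for *Psma3*, -0.076 to 0.35 for *Psmb4*, -0.14 to 0.44 for *Psmd9*, -0.0070 to 0.19 for *Psmg3*, -0.10 to 0.081 for *Psme4* and -0.22 to 0.062 for *Psmf1*. In all, 350 of the named genes' values under alternatives kept direction and side of the threshold and 30 reversed. The remaining 3 were those of *Psme3*, *Psmg1* and *Psmd5* without IEL replicate 2.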
